A study of Mus musculus with 6 samples.

Results

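The genes described here are the semaphorins, plexins, Slits, Robo receptors, netrins and Unc5 receptors, 45 of 25428 features measured in hypoxic mouse lung. They were picked by a rule on the symbol, as the features named Sema, Plxn, Slit, Robo, Ntn or Unc5. They comprised 20 semaphorins, 3 Slits and 4 netrins on the ligand side and 9 plexins, 4 Robo and 4 Unc5 receptors on the receptor side. The last member, Plxna4os1, is a long non-coding RNA that the symbol rule admitted. Gene expression was recorded in 1 lung lobe from each of 6 mice, 1 array per mouse. The whole cohort had breathed 10% oxygen during the preceding 7 days. Of these mice, 3 were of genotype Nfat5fl/fl, with the Nfat5 gene flanked by recombination sites, and 3 were of genotype Nfat5(EC)-/-, in which Nfat5 was deleted in endothelial cells. Mice numbered 1, 3 and 4 made up each group. There was no normoxic group, so every difference given here is one between genotypes within hypoxia. Neither the Cre line nor the time of recombination, age or sex is given in the sources used here.

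Guidance molecules were first described in growing axons, and blood vessels use the same cues. Semaphorins are secreted or membrane-bound ligands that act mainly through plexins, whose cytoplasmic part inactivates small GTPases of the Ras and Rap families, while most class 3 semaphorins need a neuropilin as a co-receptor. Slits are secreted ligands of Robo receptors, and netrins bind Dcc, neogenin and the Unc5 receptors. In vessels, the Sema3e and Plxnd1 pair, Robo4 and Unc5b are the best known members, and Nfat5 is a transcription factor of the Rel family known for the response to osmotic and mechanical stress.

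The level of Nfat5 itself was lower in the Nfat5(EC)-/- lungs. The log2 values of mice 1, 3 and 4 were 6.65, 6.58 and 6.30 in the Nfat5fl/fl group and 4.46, 4.48 and 3.89 in the Nfat5(EC)-/- group, so that the groups did not overlap (log2 difference -2.23, SE 0.23, adjusted p = 0.00151). This amounted to a 4.69-fold lower level in a whole lobe. In a whole lobe, fewer cells of a type and less RNA per cell cannot be told apart. Across all features, arrays correlated with r between 0.968 and 0.970 within the Nfat5fl/fl group and between 0.916 and 0.939 within the Nfat5(EC)-/- group, and between 0.829 and 0.919 across groups. Array values ran on one common log2 scale with a median of 2.98. Probe brightness differs between genes, so that a value does not rank one gene's expression against another's, and a value above or below the median says only where it lies on the array scale. All values below are given in the order of mice 1, 3 and 4, and all p-values are from limma's moderated test, adjusted by Benjamini-Hochberg over all 25428 features.

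Of the 45 guidance genes, 16 were higher and 10 were lower in the Nfat5(EC)-/- lungs, and 19 did not pass an adjusted p of 0.05. Among all features, 12.5% were called higher, 13.1% lower and 25.6% in either direction, whereas 35.6% of the guidance genes were called higher and 22.2% lower. Array values of guidance genes lay mostly above the median mean value, and among the 12714 features above it 21.7% were called higher and 21.6% lower. The 35 guidance genes above it included 15 of the 16 higher and all 10 lower members. By non-overlap of the 2 groups, 19 members were higher and 14 lower, beside 22.0% and 20.0% of all features (42.0% in either direction). The median log2 difference of the members was 0.29, and that of all features 0.042. In 20 of the 26 called members Nfat5(EC)-/- mouse 4 lay farthest from the Nfat5fl/fl mean, a share of 76.9%, while it lay farthest in 46.5% of the 6510 called features, and its part in the result was not tested. Without that array 11 members were called higher and 9 lower. There were 5 higher and 5 lower calls without Nfat5fl/fl mouse 1, 6 and 5 without Nfat5fl/fl mouse 3, and 13 and 8 without Nfat5fl/fl mouse 4. Calls over all features fell in these fits too, from 3185 higher and 3325 lower. They numbered 2720 and 3177 without Nfat5(EC)-/- mouse 4, and 1588 and 1685 without Nfat5fl/fl mouse 1. Without Nfat5fl/fl mouse 3 they were 1462 and 1555, and without Nfat5fl/fl mouse 4 2214 and 2419.

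**Figure D1:**
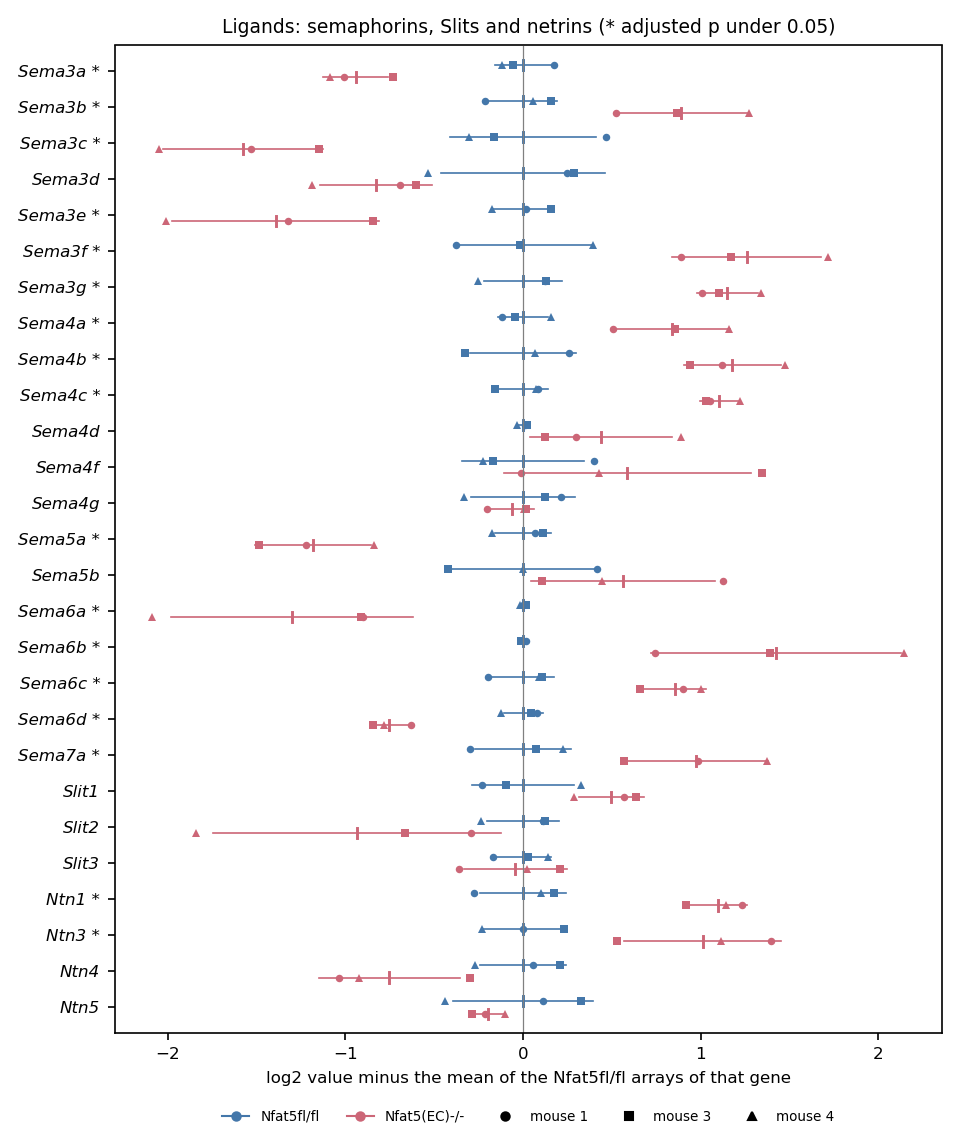
Semaphorins, Slits and netrins in hypoxic lung, as the log2 value of each mouse minus the mean of the 3 Nfat5fl/fl mice for that gene. Points are mice 1, 3 and 4 of each genotype, the short vertical bar is the group mean, the horizontal line its SD, and an asterisk marks an adjusted p under 0.05. Sema3c, Sema3e, Sema5a and Sema6a lie to the left in all 3 Nfat5(EC)-/- mice, and Sema6b, Sema3f, Sema4b and Sema3g lie to the right.

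The secreted class 3 semaphorins split into 3 lower and 3 higher genes. Sema3c, a ligand known from the outflow tract of the heart, changed most among all 45 members. Its log2 values were 9.01, 8.38 and 8.24 in Nfat5fl/fl and 7.01, 7.39 and 6.49 in Nfat5(EC)-/- lungs, a 2.98-fold lower level with the groups well apart (8.54 ± 0.41 against 6.96 ± 0.45, SD, n = 3; log2 difference -1.58, SE 0.29, adjusted p = 0.00602). Sema3e, which binds Plxnd1 without a neuropilin and repels endothelial cells, fell from 6.99, 7.14 and 6.80 to 5.66, 6.13 and 4.97 (log2 difference -1.39, SE 0.29, adjusted p = 0.00948). All Nfat5(EC)-/- values of Sema3e were below all control values, with mouse 4 the lowest. Sema3a, the founding axon-collapsing semaphorin and a ligand of Nrp1 with plexins A, measured 5.73, 5.50 and 5.43 in controls and 4.55, 4.82 and 4.46 in Nfat5(EC)-/- lungs (log2 difference -0.94, SE 0.20, adjusted p = 0.00950). Sema3d, which also binds Nrp1 and is known for guiding endothelial cells of the pulmonary veins, pointed the same way without passing the test (3.35, 3.40 and 2.57 against 2.41, 2.51 and 1.92; log2 difference -0.83, SE 0.28, adjusted p = 0.0558), although its groups did not overlap. These 4 genes all lie on chromosome 5.

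The other class 3 members, Sema3b and Sema3f on chromosome 9 and Sema3g on chromosome 14, were higher. Sema3f is a Nrp2 ligand that inhibits vessel growth, and its values were 6.07, 6.43 and 6.84 in Nfat5fl/fl and 7.34, 7.62 and 8.16 in Nfat5(EC)-/- lungs, 2.39-fold higher (log2 difference 1.26, SE 0.28, adjusted p = 0.0120). Sema3g, which is made by endothelial cells, mainly of arteries, rose from 4.83, 4.84 and 4.46 to 5.71, 5.81 and 6.05 (4.71 ± 0.22 against 5.86 ± 0.17, SD, n = 3; log2 difference 1.15, SE 0.20, adjusted p = 0.00514). The lowest Nfat5(EC)-/- value of Sema3g was well above the highest control. Sema3b, a close relative of Sema3f, measured 4.52, 4.89 and 4.79 in controls and 5.26, 5.60 and 6.01 in Nfat5(EC)-/- lungs (log2 difference 0.89, SE 0.24, adjusted p = 0.0248). When 1 array was left out, the calls of Sema3a, Sema3c, Sema3e and Sema3g held in all 6 cases. The call of Sema3f was lost without Nfat5fl/fl mouse 1 or 3 (adjusted p up to 0.0577), and that of Sema3b without Nfat5fl/fl mouse 1, 3 or 4 or Nfat5(EC)-/- mouse 4 (adjusted p up to 0.102).

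Among the membrane-bound class 4 semaphorins, Sema4a, Sema4b and Sema4c rose and none fell. Sema4c, a ligand of Plxnb2, had values of 4.16, 3.92 and 4.15 in Nfat5fl/fl and 5.13, 5.10 and 5.30 in Nfat5(EC)-/- lungs, with little spread in either group (4.08 ± 0.14 against 5.18 ± 0.11, SD, n = 3; log2 difference 1.10, SE 0.19, adjusted p = 0.00438). Sema4b rose from 3.89, 3.30 and 3.70 to 4.75, 4.57 and 5.11 (log2 difference 1.18, SE 0.23, adjusted p = 0.00780). Sema4a, known for co-stimulating T cells, measured 4.21, 4.28 and 4.48 against 4.83, 5.18 and 5.49 (log2 difference 0.84, SE 0.22, adjusted p = 0.0231), and its call was lost without Nfat5fl/fl mouse 1 or 3 or Nfat5(EC)-/- mouse 4 (adjusted p up to 0.0918). Sema4d, the CD100 molecule and ligand of Plxnb1, was at 3.49, 3.50 and 3.44 in controls and 3.77, 3.60 and 4.36 in Nfat5(EC)-/- lungs. Its groups did not overlap, with mouse 4 well above its group mates, but the difference did not pass (log2 difference 0.44, SE 0.23, adjusted p = 0.207, 95% interval -0.09 to 0.96). Sema4f (0.59, adjusted p = 0.254) and Sema4g (-0.06, adjusted p = 0.875) did not pass either.

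Classes 5 to 7 again held both directions. Sema5a, a transmembrane semaphorin with thrombospondin repeats, fell from 5.19, 5.23 and 4.95 to 3.90, 3.64 and 4.28 (log2 difference -1.18, SE 0.22, adjusted p = 0.00634), and its class partner Sema5b did not pass (0.56, adjusted p = 0.225). Sema6a, a ligand of Plxna2 and Plxna4 that has also been described in endothelial cells, was nearly equal in the controls at 6.50, 6.51 and 6.47 and was 5.59, 5.58 and 4.41 in the Nfat5(EC)-/- lungs (log2 difference -1.30, SE 0.31, adjusted p = 0.0167). Mouse 4 of the latter group stood more than 1 log2 unit below its group mates. Sema6d, a ligand of Plxna1 known from heart development, measured 5.75, 5.71 and 5.54 against 5.03, 4.82 and 4.89 (log2 difference -0.75, SE 0.18, adjusted p = 0.0172).

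Sema6b showed the largest rise of any ligand, from 3.46, 3.43 and 3.44 to 4.19, 4.84 and 5.59 (2.69-fold; log2 difference 1.43, SE 0.32, adjusted p = 0.0127). The 3 controls of Sema6b were almost identical, whereas the Nfat5(EC)-/- mice were spread over more than 1 log2 unit. Sema6c, of the same class, measured 2.29, 2.60 and 2.58 in controls, below the array median, and 3.39, 3.14 and 3.49 in Nfat5(EC)-/- lungs (log2 difference 0.85, SE 0.20, adjusted p = 0.0142). Sema7a, which is anchored by a lipid and acts through integrins and Plxnc1, rose from 4.59, 4.96 and 5.11 to 5.87, 5.45 and 6.26 (log2 difference 0.98, SE 0.25, adjusted p = 0.0227). Calls were lost for Sema6a without Nfat5fl/fl mouse 1, 3 or 4 (adjusted p up to 0.0653), Sema6b without Nfat5fl/fl mouse 1 or 3 (adjusted p up to 0.0538), Sema6c without Nfat5fl/fl mouse 1 (adjusted p up to 0.0670), Sema6d without Nfat5fl/fl mouse 1 or 3 (adjusted p up to 0.0740) and Sema7a without Nfat5fl/fl mouse 1 or 3 or Nfat5(EC)-/- mouse 4 (adjusted p up to 0.0966), while the call of Sema5a held without any single array.

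Of the netrins, 2 of 4 rose. Ntn1, the prototype netrin and a ligand of Dcc, neogenin and Unc5b, had values of 5.40, 5.85 and 5.77 in Nfat5fl/fl and 6.91, 6.59 and 6.82 in Nfat5(EC)-/- lungs (2.14-fold; log2 difference 1.10, SE 0.21, adjusted p = 0.00642), and the call was kept when any one array was left out. Ntn3 rose from 2.59, 2.82 and 2.36, below the array median, to 3.98, 3.12 and 3.71 (log2 difference 1.01, SE 0.26, adjusted p = 0.0209). This call was lost without Nfat5fl/fl mouse 1, 3 or 4 (adjusted p up to 0.0765). Ntn4, a netrin of basement membranes that binds laminin, measured 5.31, 5.46 and 4.98 in controls and 4.21, 4.95 and 4.33 in Nfat5(EC)-/- lungs. The Ntn4 groups did not overlap, and the adjusted p lay just beyond the threshold (log2 difference -0.75, SE 0.25, adjusted p = 0.0542). Ntn5 did not pass (-0.20, adjusted p = 0.588).

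No Slit passed the test. Slit2, which restrains or promotes vessel growth through Robo1 and Robo4 depending on the setting, was at 6.24, 6.25 and 5.89 in controls and 5.84, 5.46 and 4.29 in Nfat5(EC)-/- lungs. All 3 Nfat5(EC)-/- values were lower, but mouse 1 by little and mouse 4 by much (log2 difference -0.93, SE 0.36, adjusted p = 0.0924). Slit3, a ligand of vascular Robo receptors, differed by -0.04 with a 95% interval of -0.53 to 0.44 (adjusted p = 0.914), and Slit1 by 0.50 (adjusted p = 0.130).

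**Figure D2:**
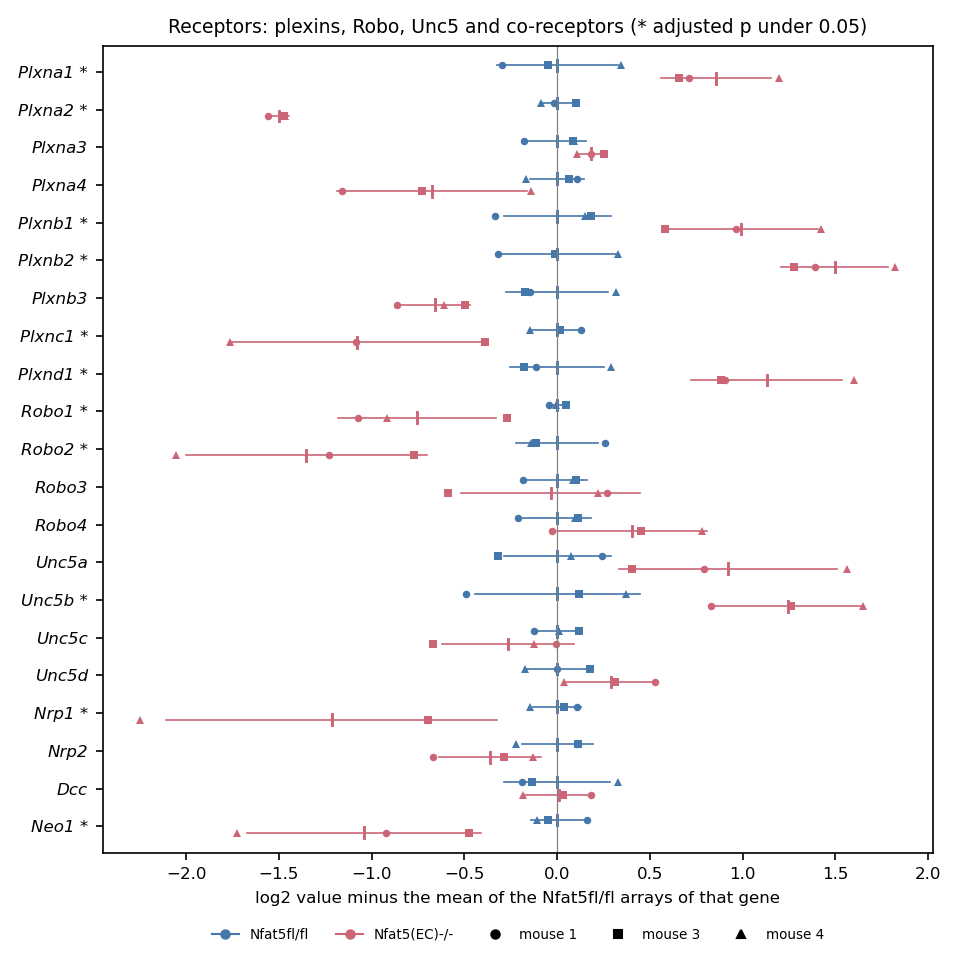
Plexins, Robo and Unc5 receptors with the co-receptors Nrp1, Nrp2, Dcc and Neo1, plotted as the log2 value of each mouse minus the mean of the Nfat5fl/fl mice for that gene. Points are mice, the short vertical bar is the group mean, the line its SD, and an asterisk marks an adjusted p under 0.05. Plxna2 is lower in all 3 Nfat5(EC)-/- mice by nearly the same amount, and Plxnb2 is higher in all 3.

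The plexins included the most regular changes of the set, with 4 of 9 higher and 2 lower. Plxna2, a receptor of Sema6a and, with neuropilins, of class 3 semaphorins, was at 5.13, 5.25 and 5.06 in Nfat5fl/fl and 3.58, 3.67 and 3.68 in Nfat5(EC)-/- lungs, 2.83-fold lower (5.14 ± 0.10 against 3.64 ± 0.05, SD, n = 3; log2 difference -1.50, SE 0.18, adjusted p = 0.00192). The gap between the Plxna2 groups was far wider than the spread within either. Plxna1, of the same subfamily, rose from 5.95, 6.20 and 6.59 to 6.96, 6.90 and 7.44 (log2 difference 0.85, SE 0.24, adjusted p = 0.0310). Plxna3 (0.18, adjusted p = 0.532) and Plxna4 (-0.68, adjusted p = 0.0970) did not pass, nor did the non-coding Plxna4os1 (0.21, adjusted p = 0.571).

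Plxnb2, a receptor of class 4 semaphorins, showed the largest rise among the receptors. Its values were 6.10, 6.40 and 6.74 in controls and 7.80, 7.69 and 8.24 in Nfat5(EC)-/- lungs (2.82-fold; 6.41 ± 0.32 against 7.91 ± 0.29, SD, n = 3; log2 difference 1.50, SE 0.24, adjusted p = 0.00372). Plxnb1, the receptor of Sema4d, rose from 4.35, 4.87 and 4.83 to 5.65, 5.26 and 6.10 (log2 difference 0.99, SE 0.26, adjusted p = 0.0238), whereas Plxnb3, a receptor of Sema5a, just missed the threshold in the other direction (-0.66, SE 0.22, adjusted p = 0.0529). The values of Plxnb3 were below the array median in every mouse. Plxnc1, the plexin that binds Sema7a, fell from 4.58, 4.46 and 4.31 to 3.37, 4.06 and 2.69 (log2 difference -1.08, SE 0.32, adjusted p = 0.0366), with a wide spread among the Nfat5(EC)-/- mice. The calls of Plxna2 and Plxnb2 held without any single array. The others were lost for Plxna1 without Nfat5fl/fl mouse 1 or 3 or Nfat5(EC)-/- mouse 4 (adjusted p up to 0.123), Plxnb1 without Nfat5fl/fl mouse 1, 3 or 4 or Nfat5(EC)-/- mouse 4 (adjusted p up to 0.100) and Plxnc1 without Nfat5fl/fl mouse 1, 3 or 4 or Nfat5(EC)-/- mouse 1 or 4 (adjusted p up to 0.123).

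Plxnd1, the endothelial plexin through which Sema3e restrains sprouting, was higher in the lungs that had less Sema3e. Its log2 values were 5.44, 5.38 and 5.85 in Nfat5fl/fl and 6.46, 6.44 and 7.15 in Nfat5(EC)-/- lungs, a 2.19-fold rise with no overlap (log2 difference 1.13, SE 0.25, adjusted p = 0.0125). Leaving out Nfat5fl/fl mouse 1 or 3 took the call away (adjusted p up to 0.0617). The 250 bases before the start of each gene of this pair are shown because their differences were opposite in sign. The letters are from RefSeq (GRCm38.p6), read 5′ to 3′ on the strand of the gene, for Sema3e chr5:14025026-14025275 on the plus strand and for Plxnd1 chr6:115995006-115995255 on the minus strand. Capitals mark TGGAAA, the core of the element bound by Nfat5, searched as TGGAAA and its reverse complement TTTCCA.
Sema3e: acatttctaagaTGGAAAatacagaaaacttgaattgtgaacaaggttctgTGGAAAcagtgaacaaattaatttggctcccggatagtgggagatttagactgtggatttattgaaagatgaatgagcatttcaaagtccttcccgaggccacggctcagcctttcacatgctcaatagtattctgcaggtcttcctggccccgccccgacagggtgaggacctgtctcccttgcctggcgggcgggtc
Plxnd1: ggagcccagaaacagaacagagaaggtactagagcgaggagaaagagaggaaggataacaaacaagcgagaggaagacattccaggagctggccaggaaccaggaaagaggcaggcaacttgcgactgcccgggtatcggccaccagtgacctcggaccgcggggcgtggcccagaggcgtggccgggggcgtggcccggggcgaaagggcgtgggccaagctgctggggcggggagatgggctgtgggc
The core occurred 2 times in the Sema3e window, 238 and 199 bases before the start, and was not among the letters of the Plxnd1 window.

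Of the Robo receptors, Robo1 and Robo2 fell, and both lie on chromosome 16. Robo2 had values of 6.27, 5.90 and 5.88 in Nfat5fl/fl and 4.79, 5.25 and 3.96 in Nfat5(EC)-/- lungs, 2.55-fold lower with mouse 4 the lowest (log2 difference -1.35, SE 0.32, adjusted p = 0.0146). Robo1, a Slit receptor also present in endothelial cells, was nearly constant in the controls at 4.42, 4.52 and 4.46 and measured 3.40, 4.20 and 3.55 in the Nfat5(EC)-/- lungs, where mouse 3 came close to the controls (log2 difference -0.75, SE 0.24, adjusted p = 0.0468). The call of Robo2 was lost without Nfat5fl/fl mouse 1 or 3 (adjusted p up to 0.0684), and that of Robo1 was lost without Nfat5fl/fl mouse 1, 3 or 4 or Nfat5(EC)-/- mouse 1 or 4 (adjusted p up to 0.144). Robo4, the Robo receptor of endothelial cells, which stabilises vessels, was at 4.25, 4.58 and 4.56 in controls and 4.44, 4.92 and 5.25 in Nfat5(EC)-/- lungs. The Robo4 groups overlapped (log2 difference 0.40, SE 0.24, adjusted p = 0.270, 95% interval -0.15 to 0.95). Robo3 differed by -0.03 (adjusted p = 0.944).

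Of the Unc5 receptors, Unc5b rose and the other 3 did not pass. Unc5b, a netrin receptor of endothelial tip cells, measured 2.40, 3.01 and 3.27 in Nfat5fl/fl and 3.72, 4.16 and 4.54 in Nfat5(EC)-/- lungs (2.37-fold; 2.90 ± 0.44 against 4.14 ± 0.41, SD, n = 3; log2 difference 1.24, SE 0.29, adjusted p = 0.0144). Its control mean lay below the array median. The lowest Nfat5(EC)-/- value exceeded the highest control, and the call was lost without Nfat5fl/fl mouse 1 or 3 (adjusted p up to 0.0621). Unc5a was at 2.75, 2.19 and 2.58 in controls, below the array median, and 3.30, 2.91 and 4.07 in Nfat5(EC)-/- lungs, with no overlap but an adjusted p beyond the threshold (log2 difference 0.92, SE 0.31, adjusted p = 0.0547). Unc5c (-0.27, adjusted p = 0.439) and Unc5d (0.29, adjusted p = 0.355) did not pass.

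Partners were not always changed in the same direction. The log2 differences of Sema3e and Plxnd1 were -1.39 and 1.13, and those of Sema7a and Plxnc1 were 0.98 and -1.08, so that both pairs were opposed. Sema6d and Plxna1 were opposed too (-0.75 and 0.85). Among the genes of these opposed pairs, only Sema3e kept its call without any single array. In each opposed pair the lower gene spans more than 100 kb and the higher one less. This follows the tendency across all genes that is described below, and its part in the opposition was not tested. Sema4c and Plxnb2 were both higher (1.10 and 1.50), as were Ntn1 and Unc5b (1.10 and 1.24). Neogenin (Neo1), another receptor of Ntn1 given below, was lower (-1.04). Sema6a and its receptor Plxna2 were both lower (-1.30 and -1.50), as were Sema3a and its co-receptor Nrp1 (-0.94 and -1.22). For Slit2 with Robo1 and Robo2 the differences were -0.93, -0.75 and -1.35, of which the first did not pass.

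Windows of the same 250 bases were at hand for 36 of the 45 members, with 49 windows in all. The TGGAAA core was found in 7 of these 49 windows, or 14.3%, and in 18.6% of 32841 windows of all genes. It was found in 4 of 12 windows of the lower members and 2 of 20 windows of the higher members, beside 15% of windows of all genes called lower and 14.1% of those called higher. The median GC content was 54.6% in the 12 windows of the lower members and 64.4% in the 20 of the higher members, beside 59.6% and 60% in windows of all genes called lower and higher and 52.4% in all windows. Among the receptors with the core were Robo1 (chr16:72662899-72663148, plus strand), which fell, and Unc5b (chr10:60831582-60831831, minus strand), which rose. Their windows are given as examples of the core beside opposite differences, with the core in capitals.
Robo1: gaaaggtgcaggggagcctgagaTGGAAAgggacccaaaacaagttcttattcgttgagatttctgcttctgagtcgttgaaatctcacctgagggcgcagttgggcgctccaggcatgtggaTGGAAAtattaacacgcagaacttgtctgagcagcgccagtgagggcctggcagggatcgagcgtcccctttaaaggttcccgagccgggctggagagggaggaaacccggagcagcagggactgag
Unc5b: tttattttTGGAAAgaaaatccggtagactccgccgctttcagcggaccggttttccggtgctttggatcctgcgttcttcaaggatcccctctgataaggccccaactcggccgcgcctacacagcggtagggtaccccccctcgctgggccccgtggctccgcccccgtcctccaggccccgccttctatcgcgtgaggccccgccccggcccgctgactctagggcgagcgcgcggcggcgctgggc
In Robo1 the cores began 227 and 127 bases before the start, and in Unc5b the single core began 242 bases before it.

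Neuropilins, integrins and other membrane proteins that bind these ligands or receptors included 6 lower and 2 higher genes of 17 measured, with a median log2 difference of -0.36, beside 13.1% lower and 12.5% higher among all features. Above the median level these shares were 21.6% and 21.7%. Of the 6 lower calls only that of Itgb1 held without any single array. Nrp1, the co-receptor of Sema3a that also binds Vegfa, was at 7.43, 7.37 and 7.18 in Nfat5fl/fl and 6.62, 6.63 and 5.08 in Nfat5(EC)-/- lungs (log2 difference -1.22, SE 0.39, adjusted p = 0.0475). Mouse 4 was by far the lowest, and the call was lost without Nfat5fl/fl mouse 1, 3 or 4 (adjusted p up to 0.142). Nrp2, the co-receptor of Sema3f, was at 5.49, 5.50 and 5.16 against 4.71, 5.10 and 5.25 and did not pass (log2 difference -0.36, SE 0.22, adjusted p = 0.263). The integrin subunits Itgb1 (-1.38, adjusted p = 0.00520) and Itga1 (-1.91, adjusted p = 0.0156), the receptor tyrosine kinase Met (-1.68, adjusted p = 0.0326) and Flrt2, an Unc5 ligand (-0.93, adjusted p = 0.0274), were also lower. The heparan sulfate proteoglycan Gpc1 (1.27, adjusted p = 0.00554) and the plexin B partner Erbb2 (1.08, adjusted p = 0.0270) were higher. The netrin receptors neogenin and Dcc are added after their values were seen. Neo1 fell from 5.94, 5.73 and 5.67 to 4.86, 5.30 and 4.06 (log2 difference -1.04, SE 0.30, adjusted p = 0.0344), and Dcc measured 1.74, 1.80 and 2.26 against 2.12, 1.96 and 1.75, below the array median in every mouse (0.01, adjusted p = 0.982). Leaving out an array took the calls of Itga1 without Nfat5fl/fl mouse 1 or 3 (adjusted p up to 0.0636), Met without Nfat5fl/fl mouse 1, 3 or 4 (adjusted p up to 0.108), Flrt2 without Nfat5fl/fl mouse 1, 3 or 4 or Nfat5(EC)-/- mouse 1 or 4 (adjusted p up to 0.0953), Erbb2 without Nfat5fl/fl mouse 1 or 3 or Nfat5(EC)-/- mouse 4 (adjusted p up to 0.111) and Neo1 without Nfat5fl/fl mouse 1, 3 or 4 or Nfat5(EC)-/- mouse 4 (adjusted p up to 0.121).

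Among all features 13.1% were lower and 12.5% higher, and among those above the median level 21.6% and 21.7%. Of 18 intracellular effectors of Robo receptors, 10 were lower and 1 was higher (median log2 difference -0.70). The lower genes of smallest p were the GTPase Cdc42 (-1.47, adjusted p = 0.00239), the exchange factors Sos1 (-1.42, adjusted p = 0.00227), Sos2 (-1.69, adjusted p = 0.00696) and Dock1 (-1.43, adjusted p = 0.00820) and the deubiquitinase Usp33 (-1.67, adjusted p = 0.00521). The higher one was the actin regulator Vasp (1.48, adjusted p = 0.00263). These 6 calls held without any single array. The other 5 lower calls, named after their values were seen, did not, being lost for Srgap1 without Nfat5fl/fl mouse 1, 3 or 4 or Nfat5(EC)-/- mouse 1 or 4 (adjusted p up to 0.123), Cap1 without Nfat5fl/fl mouse 1, 3 or 4 or Nfat5(EC)-/- mouse 1 or 4 (adjusted p up to 0.136), Nck1 without Nfat5fl/fl mouse 1, 3 or 4 or Nfat5(EC)-/- mouse 1 or 3 (adjusted p up to 0.147), Srgap2 without Nfat5fl/fl mouse 1, 3 or 4 (adjusted p up to 0.0782) and Enah without Nfat5fl/fl mouse 1 or 3 (adjusted p up to 0.0971). Of 10 netrin receptor effectors, 5 were lower and 1 was higher (median -0.70). The adaptor Bcar1 rose (1.65, adjusted p = 0.00227), while Siah1a (-1.35), Wasl (-0.93), Dapk1 (-0.83), Trio (-0.90) and Elmo1 (-0.77) fell, with adjusted p-values from 0.00383 to 0.0363. Leaving out an array took the calls of Wasl without Nfat5fl/fl mouse 1, 3 or 4 (adjusted p up to 0.0864), Dapk1 without Nfat5fl/fl mouse 1, 3 or 4 or Nfat5(EC)-/- mouse 1 or 4 (adjusted p up to 0.112), Trio without Nfat5fl/fl mouse 1, 3 or 4 or Nfat5(EC)-/- mouse 1 (adjusted p up to 0.104) and Elmo1 without Nfat5fl/fl mouse 1, 3 or 4 or Nfat5(EC)-/- mouse 3 or 4 (adjusted p up to 0.110).

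The 28 plexin effectors had a median of 0.023, with 6 higher and 3 lower. Beside these stand 12.5% higher and 13.1% lower among all features, and 21.7% and 21.6% above the median level. The kinases Limk1 (1.43, adjusted p = 0.00293) and Cdk5 (0.89, adjusted p = 0.00914) and the Plxnd1-binding protein Gipc1 (1.12, adjusted p = 0.0100) rose. The exchange factors Arhgef12 (-1.39, adjusted p = 0.00465) and Farp2 (-0.83, adjusted p = 0.0150) and the GTPase Rap1b (-0.97, adjusted p = 0.0182) fell. Calls were lost for Gipc1 without Nfat5fl/fl mouse 3 (adjusted p up to 0.0531), Farp2 without Nfat5fl/fl mouse 3 or 4 (adjusted p up to 0.0731) and Rap1b without Nfat5fl/fl mouse 1 or 3 (adjusted p up to 0.0804). The remaining higher calls, named after their values were seen, were Fes, Mical1 and Rnd1. Each was lost at least without Nfat5fl/fl mouse 1 or 3 (adjusted p up to 0.0904, 0.128 and 0.161). Of 5 further ligands related to netrins or neogenin, Rgma (1.32, adjusted p = 0.00276), Ntng2 (1.09, adjusted p = 0.0105) and Draxin (1.00, adjusted p = 0.0116) rose and none fell (median 1.00), and that of Draxin alone was lost without Nfat5fl/fl mouse 3 (adjusted p = 0.0553). Over these lists together, 13 of 78 genes (16.7%) were higher and 24 (30.8%) lower, with a median of -0.23, beside 12.5% and 13.1% of all features and 21.7% and 21.6% of those above the median level. The share of higher genes was thus near that of all features. Without Nfat5fl/fl mouse 1, 3 or 4 the lower genes numbered 9, 8 and 11. Lower calls over all features numbered 1685, 1555 and 2419 in the same fits, against 3325 with all arrays.

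The genomic span of a gene, introns included, went along with the direction of its difference. Of the 21 members that span more than 100 kb, 10 were lower and only Ntn1, with 177463 bp, was higher. Of the 23 shorter protein-coding members, 15 were higher and none was lower. The median span was 25645.5 bp for higher, 106537 bp for uncalled and 341471.5 bp for lower members, and Robo2, which spans 1555468 bp, was the longest of them. The same tendency was present across the table, since 31.2% of 2314 protein-coding features above 100 kb were called lower and 4.49% higher, against 12.9% and 14.4% of 17372 shorter features. As a description, Spearman's rho between span and difference was -0.58 over 44 members and -0.32 over all 19686 protein-coding features, which share the same 6 arrays.

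**Figure D3:**
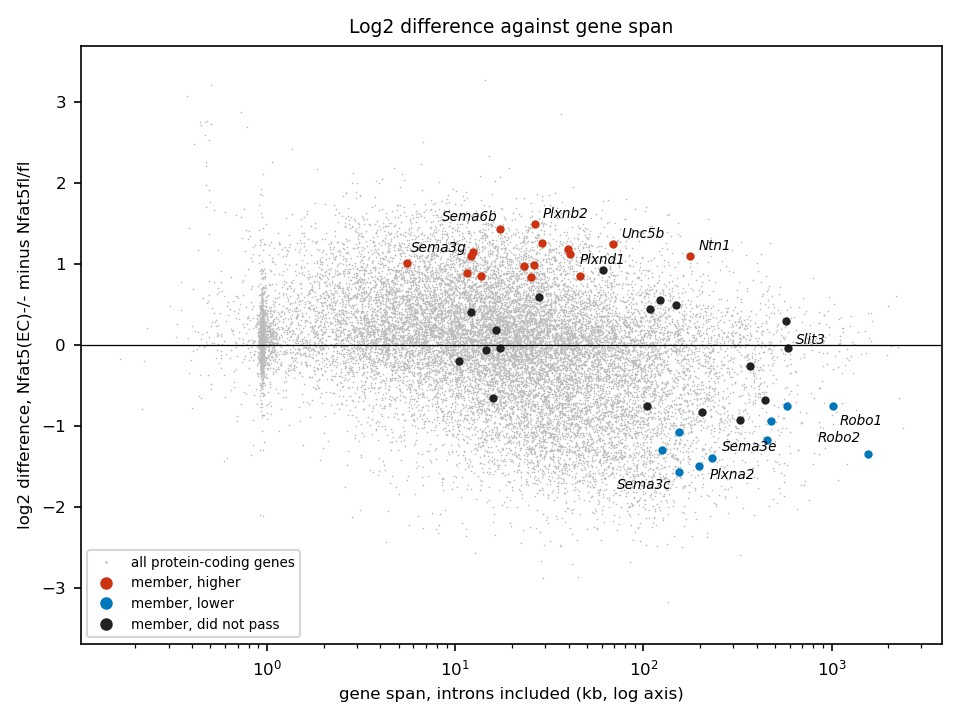
Log2 difference between Nfat5(EC)-/- and Nfat5fl/fl lungs (vertical axis) against gene span in kb (horizontal log axis). Small grey dots are all protein-coding features and large dots are guidance genes, coloured by call, of which the lower ones all span more than 100 kb.

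With the trend of value on span removed from each array, 17 protein-coding members were called higher and 8 lower, and no called member changed sign. Protein-coding features alone with no trend removed gave 17 higher and 13 lower members. On the same features, removal of the trend thus took the lower members from 13 to 8. Plxnd1 (1.34) and Sema3e (-1.04) remained opposed, both still called. In the other opposed pairs Sema7a (0.99) and Plxna1 (1.10) stayed called, while their partners Plxnc1 and Sema6d did not. The calls lost were those of Ntn3 (0.71 with adjusted p = 0.0660), Sema3b (0.70 with adjusted p = 0.0504), Robo1 (-0.54 with adjusted p = 0.130), Sema6d (-0.48 with adjusted p = 0.0826) and Plxnc1 (-0.70 with adjusted p = 0.102). Those gained were Unc5a (1.23 with adjusted p = 0.0224), Sema4d (0.83 with adjusted p = 0.0414), Slit1 (0.88 with adjusted p = 0.0172) and Plxnb3 (-0.76 with adjusted p = 0.0298), of which Unc5a and Plxnb3 were also gained with no trend removed. Among the lists above, the count of lower genes dropped from 24 to 11, and the calls of Nrp1 (-0.83 with adjusted p = 0.111) and Neo1 (-0.66 with adjusted p = 0.102) were among those lost. The part of gene span in the remaining differences was not tested.

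**Figure D4:**
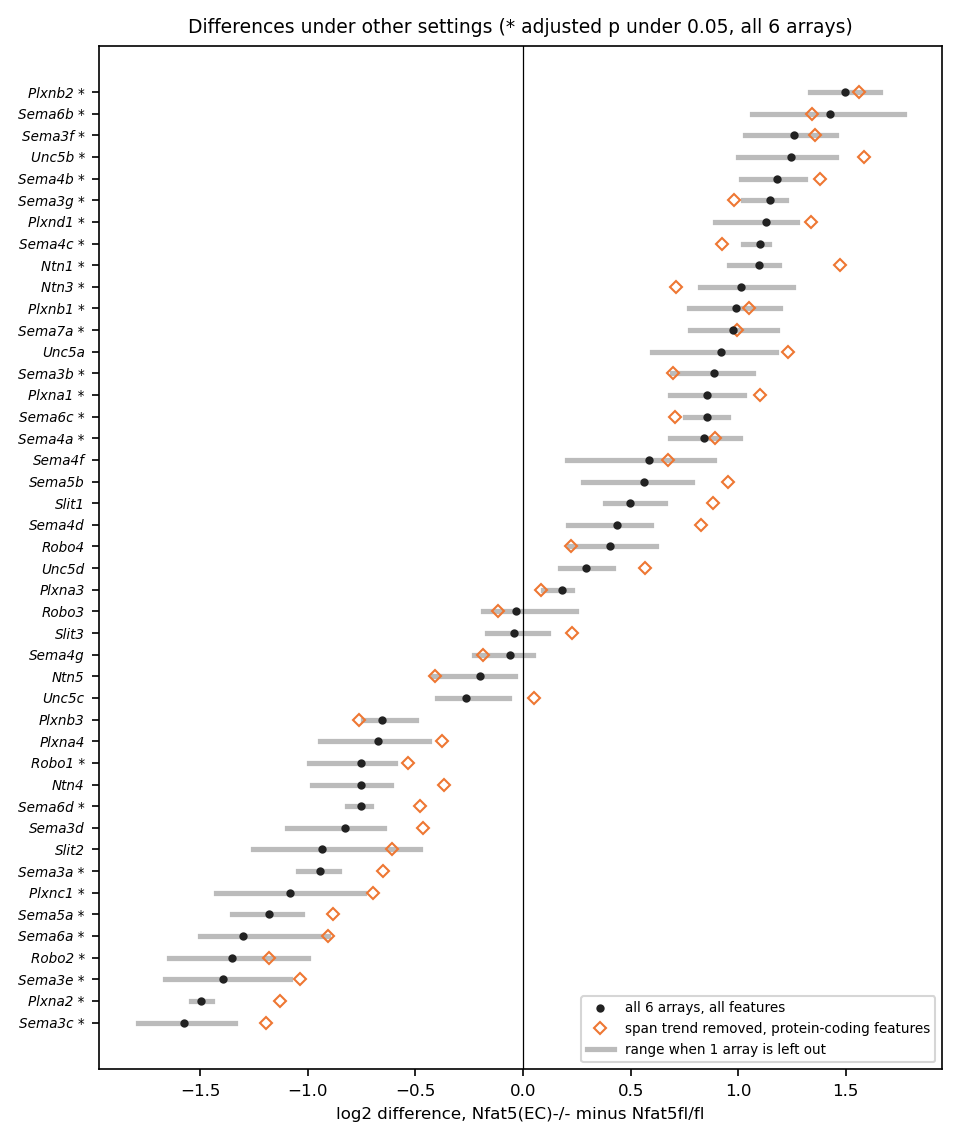
Log2 difference of each protein-coding guidance gene with all 6 arrays (black points, asterisk for an adjusted p under 0.05), its range when 1 array was left out (grey bars) and its value after removal of the span trend (orange diamonds). The bars of Slit3, Robo3 and Sema4g cross 0, and no bar of a called gene does.

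Markers of several cell types moved with the genotype too. Of 13 lists of cell type markers, the mean log2 level was lower in all 3 Nfat5(EC)-/- lungs than in any Nfat5fl/fl lung for 5 lists, higher for 2 and overlapping for 6. How often lists of other genes would separate in this way was not tested. Among all features 12.5% were called higher and 13.1% lower, and above the median level 21.7% and 21.6%. Of 8 pan-endothelial markers, 5 were lower and 2 higher, namely Cldn5 (0.91) and Eng (1.03), and their mean was 7.78 to 7.93 in Nfat5fl/fl and 6.87 to 7.27 in Nfat5(EC)-/- lungs. The other lower lists were those of alveolar type 2 cells (9.91 to 10.03 against 9.08 to 9.57, 2 of 6 called lower), club cells (9.47 to 9.96 against 9.03 to 9.17, 1 of 5 lower), macrophages and monocytes (4.46 to 4.68 against 4.03 to 4.34, 3 of 7 lower and 1 higher) and fibroblasts (6.72 to 6.77 against 6.31 to 6.53, 1 of 7 lower and 2 higher). The called club cell marker was Bpifa1 (-2.11), and the others lay between -0.71 and 0.21. Smooth muscle and pericyte markers were at 5.47 to 6.12 and 6.16 to 6.47, and of 7 only Cspg4 was called (1.69). Uncalled were Des (0.97), Pdgfrb (0.56), Cnn1 (0.33), Acta2 (0.18), Tagln (-0.22) and Myh11 (-0.29). Mesothelial markers were at 4.43 to 4.62 and 5.33 to 5.56 with 2 of 5 called higher. Those of lymphatic endothelium, alveolar type 1, ciliated, atrial muscle and lymphoid cells overlapped between groups. So did the markers of neurons and Schwann cells, of which none of 5 measured was called (1.91 to 2.41 and 2.01 to 2.27). Of the guidance genes described above as present in endothelial cells, Plxnd1, Unc5b and Sema3g were higher, Sema6a and Robo1 were lower, and Robo4 did not pass (0.40, adjusted p = 0.270). The part of cell type markers in the differences of the guidance genes was not tested.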

How the data were processed

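Total RNA of 1 lung lobe per mouse was labelled with biotin and hybridised to Affymetrix arrays, 6 in all. Per the labels, the authors made the deposited log2 values with RMA, which corrects background, normalizes quantiles and summarises probes. Its version, the definition of the probe sets and the build of the genome are each not given in the sources used here. Sorted values of the arrays differed by at most 0.00183, so a change in total RNA would not show. There are no detection calls, and differences near the low end are compressed. Arrays limit the precision by their number, 3 per group. The p-values set each difference against the spread between these mice, with the variance of each feature moderated across all features. Features were named through the platform annotation, and 723 of 25428 had no single symbol.

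The groups were compared with limma 3.58.1 (R 4.3.3), lmFit and eBayes without a filter, 2-sided, at an adjusted p of 0.05 (Benjamini-Hochberg, all features). The fit was tested on simulated data. Gene spans and promoter windows are from RefSeq (GRCm38.p6). The members follow from the symbol rule, and both this rule and the lists were chosen with earlier results of these data known. All members are named with their log2 difference. Values per array are given for called members and for known partners or endothelial members, and each pathway list is shown by up to 6 called genes of smallest p, with Nrp1 and Nrp2 always. Alternatives were a replicate block, a filter, other normalizations, other variance models, array weights, removal of a lowess trend on span and leaving out each array. A fit to protein-coding features only was chosen after seeing the data. Mouse numbers were not taken as pairs in the main fit.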

Additional observations from a re-analysis of the deposited data

How the results depend on the processing

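The members called higher and lower numbered 16 and 10, beside 3185 and 3325 of all features and 13 and 24 of the pathway genes. No called member changed sign under any alternative. Without variance moderation, which leaves 4 degrees of freedom per feature, 1118 features were higher and 866 lower, with 3 and 3 members and 6 and 4 pathway genes. The call of Robo1 was also lost with array weights and with a variance trend. With the span trend removed, 11 pathway genes were lower. When 1 array was left out, calls ranged from 1462 to 3138 features higher and 1555 to 3227 lower, from 5 to 17 members higher and 5 to 11 lower, and from 7 to 13 pathway genes higher and 8 to 22 lower. Of the 26 called members, 10 were called in each of these fits. All other alternatives kept each count within 1.5 times.

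Deviations of arrays with the same mouse number correlated at 0.0647, -0.0103 and 0.00719, so the numbers were not taken as pairs. With 3 arrays per group, these correlations cannot exclude a pairing. With mouse number as a replicate block, 3063 features were higher and 3247 lower, 17 members were higher and 13 lower, and 11 pathway genes were higher and 21 lower. The members gained were Unc5a, Sema3d, Slit2 and Ntn4.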
